A study of Mus musculus with 6 samples.

Results

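The Reg genes encode a family of small secreted C-type lectins that were first found in the pancreas. RNA-seq values for the family were compared between whole pancreata of 3 control mice and 3 Ptf1a cKO mice. Rows were sought for 7 symbols, namely Reg1, Reg2, Reg3a, Reg3b, Reg3d, Reg3g and Reg4, and 6 of the 7 were found among the 10245 genes of the table. No row named Reg4, so its level was not analysed here. Controls were of the genotype Ptf1a(CreER/+) and cKO mice of the genotype Ptf1a(CreER/fl), so that all 6 mice carried 1 copy of the tamoxifen-inducible Cre at the Ptf1a locus, an allele that makes no PTF1A protein, and the controls were therefore heterozygous for Ptf1a. All mice were given TM at 0.25 mg/g by gavage in corn oil on days 0, 1 and 2, and pancreata were taken on day 14. Controls were 4 months old and cKO mice 5 months old, so age and genotype cannot be told apart, and each group held 1 male and 2 females.

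Within the pancreas, Reg proteins are made mostly by acinar cells, its enzyme-secreting exocrine cells, and in part by islets. The gut lining also makes several of them. Reg1, known as lithostathine or pancreatic stone protein, is among the abundant secretory products of resting acini. Several Reg3 proteins are instead known as acute phase products, which acini make in large amounts in pancreatitis and which the intestine secretes as antibacterial lectins. Cytokines that signal through STAT3, such as IL-6 and IL-22, are known inducers of Reg3b and Reg3g. PTF1A itself is the transcription factor that drives acinar secretory genes. It acts in a complex with RBPJL or RBPJ, and RBPJL is its partner in the mature gland.

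Values are the normalized read counts that the authors deposited, in which the median gene of a library stood at 125.0 to 128.5. Ptf1a was at 566, 601 and 652 normalized counts in controls 1, 2 and 3. It was at 19.8, 70.1 and 10.2 in cKO mice 1, 2 and 3, in accord with the labels (log2 fold change -4.41, SE 0.49, limma adjusted p = 3.29e-04). The mouse with the most Ptf1a left, cKO 2, also had the highest summed level of the acinar secretory list among the cKO mice, at 5786220 normalized counts against 3670430 in cKO 1 and 2293440 in cKO 3. In controls the same sum ran from 14080100 to 17306100. Because cKO 2 was the only male of the cKO group, its sex and its residual Ptf1a cannot be told apart. Of all genes, 33.9% passed an adjusted p of 0.05 in limma, with 17.1% higher and 16.8% lower in cKO pancreata, and in 50.8% the 3 controls did not overlap the 3 cKO mice. The higher calls were 50.4% of all calls on the authors' scaling, 98.7% with equal library totals and 77.7% with equal totals outside the acinar secretory list.

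All 6 measured Reg genes lie next to each other on chromosome 6, without another protein-coding gene between them, in the RefSeq order Reg3b, Reg3d, Reg3a, Reg2, Reg1 and Reg3g. Reg3b, Reg3a and Reg3g passed the test as higher in cKO pancreata and Reg3d, which lies between Reg3b and Reg3a, as lower, while Reg1 and Reg2 did not pass. This makes 4 of 6 members called against the background of 33.9% of genes. The directions of Reg1 and Reg3d hold on the authors' scaling and turn to log2 fold changes of 0.41 and 0.36 when libraries are set to equal totals, where the median of all genes was 1.49. The groups did not overlap for 5 of the 6, Reg2 being the exception, against 50.8% of genes. The median log2 fold change of all genes was 0.04.

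The promoters of Reg3d, which was called lower, of Reg1, which had the profile nearest to it but was not called, and of Reg3b and Reg3g, which were called higher, are shown because they can be read for the sites of factors named above. Each is the stretch of 250 bases before the RefSeq start in GRCm38.p6, written 5′ to 3′ on the gene's strand, for Reg1 at chr6:78425733-78425982 (plus strand), Reg3d at chr6:78378866-78379115 (minus strand), Reg3b at chr6:78370635-78370884 (plus strand) and Reg3g at chr6:78468875-78469124 (minus strand). Capitals mark every match, on either strand, to the E-box CACCTG bound by the bHLH part of the PTF1 complex, to the RBPJ-type box TGGGAA, and to the STAT site TTCNNNGAA.
Reg1: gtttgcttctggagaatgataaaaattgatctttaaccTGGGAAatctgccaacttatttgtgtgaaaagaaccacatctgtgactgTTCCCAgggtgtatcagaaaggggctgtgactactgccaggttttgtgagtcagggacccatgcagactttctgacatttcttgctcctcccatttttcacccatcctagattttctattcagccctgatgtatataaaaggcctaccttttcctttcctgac
Reg3d: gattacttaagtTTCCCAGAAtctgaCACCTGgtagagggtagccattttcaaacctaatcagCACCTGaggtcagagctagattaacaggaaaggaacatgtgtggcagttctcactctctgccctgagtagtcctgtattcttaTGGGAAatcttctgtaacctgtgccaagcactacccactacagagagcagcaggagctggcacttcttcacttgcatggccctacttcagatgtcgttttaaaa
Reg3b: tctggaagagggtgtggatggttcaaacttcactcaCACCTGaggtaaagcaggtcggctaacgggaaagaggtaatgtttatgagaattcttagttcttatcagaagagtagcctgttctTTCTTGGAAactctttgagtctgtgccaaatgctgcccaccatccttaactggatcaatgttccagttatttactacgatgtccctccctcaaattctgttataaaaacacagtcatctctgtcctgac
Reg3g: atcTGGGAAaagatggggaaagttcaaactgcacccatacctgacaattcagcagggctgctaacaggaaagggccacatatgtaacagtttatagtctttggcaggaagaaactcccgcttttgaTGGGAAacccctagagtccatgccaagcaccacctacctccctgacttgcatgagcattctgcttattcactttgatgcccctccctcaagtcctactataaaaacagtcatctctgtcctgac
These matches did not divide the members by direction. CACCTG was found 2 times in Reg3d, 1 time in Reg3b and in neither Reg1 nor Reg3g, and 17.2% of all 32851 RefSeq promoter windows of this length held it. TGGGAA was found 2 times each in Reg1, Reg3d and Reg3g and not in Reg3b, against 21.6% of all promoters. TTCNNNGAA was found 1 time in Reg3b and 1 time in Reg3d, where it overlaps a TGGGAA match at position -238 from the start, against 7.02% of all promoters. Among the other promoters of the cluster, that of Reg2 held CACCTG 1 time and TGGGAA 2 times, and that of Reg3a held each of these 1 time. The longest run of bases shared between 2 of these windows was 20, between Reg3b and Reg3g, and every other pair shared 7 to 12. A match is a description of letters only, and binding was not measured here.

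Reg1 was the most abundant member. It stood at 197948, 196921 and 249684 normalized counts in controls and at 94753, 178319 and 60418 in cKO mice. All cKO values lay below all controls, but cKO 2 came close to them. That mouse had the most residual Ptf1a of the cKO group and was its only male. The means were 214851 ± 30170 and 111163 ± 60639 (SD, n = 3), a log2 fold change of -1.08 with an SE of 0.46 and a 95% interval of -2.11 to -0.056, which did not pass the adjusted threshold (limma adjusted p = 0.0946). Without cKO 2 the log2 fold change of Reg1 was -1.50 and passed (limma adjusted p = 0.00492). By mean normalized count Reg1 ranked 20th of all genes in controls and 13th in cKO pancreata. In a whole-organ sample, fewer acinar cells and less RNA per acinar cell cannot be told apart.

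Reg3d, also known as the islet neogenesis-associated protein-related gene, tracked Reg1 from mouse to mouse at a far lower level. Its values were 2706, 3091 and 3487 normalized counts in controls and 1188, 2664 and 864 in cKO mice. As with Reg1, the groups did not overlap and cKO 2 lay just under the lowest control. The means were 3095 ± 390 and 1572 ± 959 (SD, n = 3), and the difference passed the test (log2 fold change -1.14, SE 0.34, limma adjusted p = 0.0317). This call held without cKO 2 (log2 fold change -1.60, limma adjusted p = 1.15e-04) and was lost on leaving out any 1 of the other 5 mice, with adjusted p from 0.0679 to 0.0999. It was also lost with robust estimation, without the mean-variance trend and with equal totals outside the acinar list (limma adjusted p from 0.0577 to 0.0725).

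The likeness of these 2 genes was close. After each gene's mean over the 6 mice was subtracted, Reg1 and Reg3d differed by a root mean square of 0.10 on the log2 scale. Of the 7353 other genes with a mean of at least 68.2 normalized counts, Reg3d was the nearest to Reg1 and Reg1 the nearest to Reg3d. The log2 ratio of Reg3d to Reg1 per kilobase of coding sequence ran from -6.28 to -6.08 in controls and from -6.40 to -6.15 in cKO mice. Its difference between groups was -0.05 (two-sided exact permutation p = 0.6 over 3 and 3 mice). The next nearest profiles to Reg1 were those of Cxxc5, at 0.19, and Derl3, a component of endoplasmic reticulum protein disposal, at 0.20. For Reg3d they were Cxxc5 and the trypsinogen Try4, both at 0.22. The profiles are descriptions over 6 mice of 2 groups.

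Sequence shared between members, which could let reads of 1 gene count for another, was measured on transcripts. In the GENCODE M21 main coding transcripts, no stretch of 50 bases, the length of the reads, was identical between any 2 Reg genes. The closest stretches of Reg1 and Reg3d differed at 16 of 50 bases. The closest of any pair were those of Reg3b and Reg3g, at 3 of 50 bases, followed by Reg1 and Reg2 at 4. In Reg1, 32 of 855 such stretches (3.74%) were identical to a stretch in a transcript outside the family, and in the other 5 measured members none were.

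Reg1 and Reg3d had smaller log2 fold changes than most secreted acinar proteins. Of 31 measured genes of the acinar secretory list, 22 were called lower and 1 higher, and the median was -2.13 on the log2 scale against 0.04 for all genes. Among them Cuzd1, a zymogen granule protein, had a log2 fold change of -2.60 (limma adjusted p = 3.67e-04). For Ctrc, the chymotrypsinogen C gene, it was -2.57 (limma adjusted p = 5.49e-04) and for the granule membrane glycoprotein Gp2 -2.82 (limma adjusted p = 6.01e-04). Within each mouse, the log2 ratio of the Reg1 normalized count to the summed count of the list, neither per length, was -6.45, -6.44 and -5.82 in controls and -5.28, -5.02 and -5.25 in cKO mice. The groups did not overlap and the difference was 1.06, with an exact permutation p of 0.1, the smallest that 3 against 3 mice allow (0.15 after Benjamini-Hochberg adjustment over 9 such tests). For Reg3d the same ratio differed by 1.00 (exact permutation p = 0.1, adjusted 0.15). These ratios do not depend on how libraries were scaled, and they were added after the values had been seen.

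**Figure D1:**
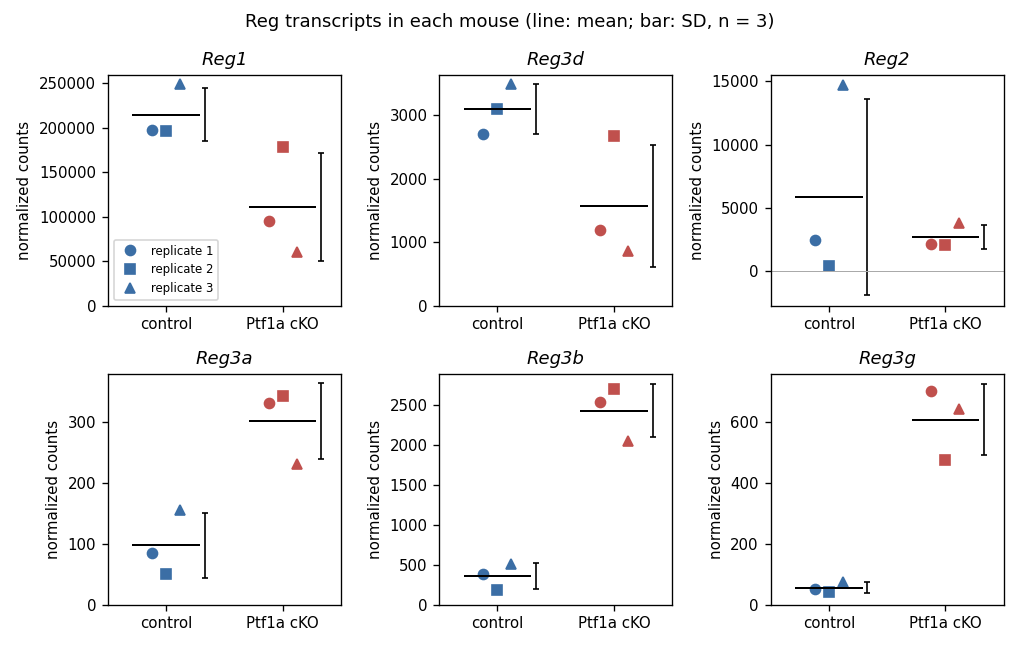
Normalized counts (linear axes, 1 scale per gene) of the 6 measured Reg genes in each mouse, with controls in blue and Ptf1a cKO in red, marker shape giving the replicate, the line the mean and the bar 1 SD over 3 mice. Reg3a, Reg3b and Reg3g were higher and Reg1 and Reg3d, on this scaling, lower in all cKO mice than in all controls, while control values of Reg2 ran from 395 to 14680 and its SD bar reaches below 0.

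**Figure D2:**
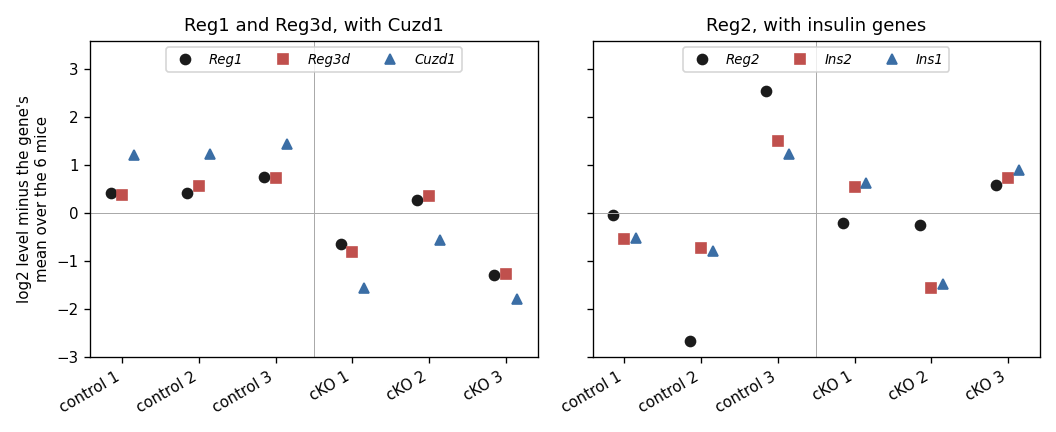
Log2 level of each gene minus its own mean over the 6 mice, for Reg1, Reg3d and the acinar gene Cuzd1 on the left and for Reg2, Ins2 and Ins1 on the right, with 1 marker per mouse. Reg1 and Reg3d lie on each other in every mouse (root mean square difference 0.10), whereas Reg2 is nearest to Ins2 but by only 1.11.

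Reg2, a close relative of Reg1 that is made in islets as well as in acini, varied more between control mice than between genotypes. It was at 2464, 395 and 14680 normalized counts in controls, a 37.1-fold range. In cKO mice it was at 2198, 2119 and 3802, a 1.79-fold range that lies inside that of the controls. The control mean of 5846 ± 7720 was above the cKO mean of 2706 ± 950 (SD, n = 3), whereas the log2 fold change was 0.10 with an SE of 1.02 and a 95% interval of -2.19 to 2.39 (limma adjusted p = 0.948). Differences of over 4-fold in either direction therefore lie inside the interval. The SE of Reg2 was larger than that of 99.8% of genes.

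The genes with the profiles nearest to Reg2 were both insulin genes and the cell adhesion gene Nfasc, although none was near. Ins2 differed from Reg2 by a root mean square of 1.11 and was at 5871, 5179 and 24002 normalized counts in controls and 12421, 2900 and 14113 in cKO mice. The highest value of both genes was in control 3. The orders differed otherwise, since the lowest Ins2 was in cKO 2 and the lowest Reg2 in control 2. Ins1 was at 1.13 and Nfasc at 1.12. Of 20 measured islet genes, 2 were called higher, Ttr among them, and none lower, against 17.1% and 16.8% of all genes. The summed level of the 20 was 14126 to 46654 normalized counts in controls and 19525 to 122664 in cKO mice. Ttr carried most of the latter, and without it the sums were 12422 to 45262 and 6396 to 35874, which overlap. The part of islet content in the spread of Reg2 was not tested.

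Reg3b, pancreatitis-associated protein 1, rose to become the most abundant Reg3 transcript by mean level. It was at 389, 177 and 505 normalized counts in controls and at 2539, 2697 and 2055 in cKO mice. Even the lowest cKO mouse was 4.07-fold above the highest control. The mean went from 357 ± 166 to 2430 ± 334 (SD, n = 3), a 6.81-fold rise (log2 fold change 2.87, SE 0.32, limma adjusted p = 3.52e-04). Reg3b ranked 1750th of all genes by mean in controls and 109th in cKO pancreata, and its rise was the 55th largest of all genes. Unlike Reg1 and Reg3d, Reg3b was not nearer to controls in cKO 2, where its value was the highest of the 6.

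Reg3g, which encodes an intestinal lectin that kills Gram-positive bacteria, changed by more than any other member. It was at 51.0, 40.0 and 74.3 normalized counts in controls and at 701, 476 and 643 in cKO mice. The groups were 6.41-fold apart at their closest, and cKO 2 was the lowest of the cKO mice. The mean went from 55.1 ± 17.5 to 607 ± 117 (SD, n = 3), an 11.0-fold rise that was the 36th largest of all genes (log2 fold change 3.41, SE 0.22, limma adjusted p = 2.63e-05). In controls Reg3g was below the median gene of the library in each mouse.

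Reg3a, which shares its name with the human antibacterial lectin REG3A, rose least of these. It was at 84.6, 50.9 and 156 normalized counts in controls and at 331, 343 and 230 in cKO mice. The lowest cKO mouse, cKO 3, was 1.48-fold above the highest control, control 3. The mean went from 97.1 ± 53.6 to 301 ± 62.0 (SD, n = 3), a 3.10-fold rise (log2 fold change 1.72, SE 0.34, limma adjusted p = 0.00486). Reg3a, Reg3b and Reg3g stayed called as higher in every alternative fit and on leaving out any 1 mouse, with log2 fold changes over single left-out mice of 1.34 to 2.12, 2.44 to 3.18 and 3.21 to 3.63.

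**Figure D3:**
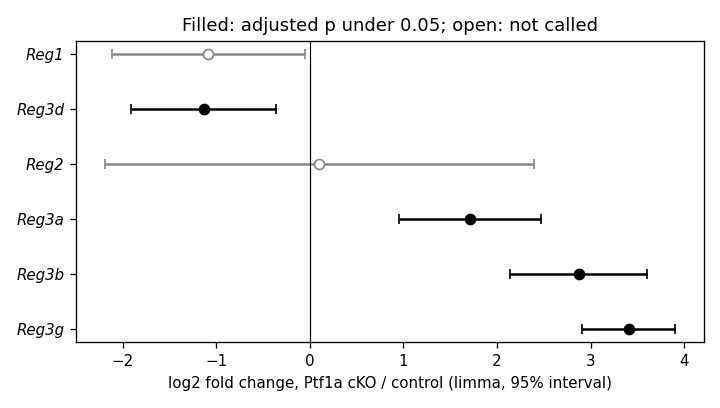
Log2 fold change (Ptf1a cKO over control) of the 6 measured Reg genes with 95% intervals from limma over 3 control and 3 cKO mice, filled where the adjusted p was under 0.05. The intervals of Reg3a, Reg3b and Reg3g lie above 0 and that of Reg3d, on the authors' scaling, below, while that of Reg2 reaches from -2.19 to 2.39.

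The nearest profiles of the 3 members that rose were mostly those of genes outside the family. Reg3g was the third nearest gene to Reg3b, at a root mean square of 0.44, after Ly6e at 0.41 and the glutamine synthetase gene Glul at 0.44. In turn Reg3b was the 6th nearest to Reg3g, whose nearest were Rsph9 at 0.18, the Golgi membrane protein gene Golm1 at 0.22 and Sec16b at 0.34. Reg3a was nearest to Cdo1, which encodes cysteine dioxygenase, at 0.36, to Jun at 0.37 and to Pls3 at 0.37. The log2 ratio of Reg3b to Reg3g per kilobase was 2.84, 2.05 and 2.70 in controls and 1.84, 2.49 and 1.66 in cKO mice. These ranges overlap, and the difference of -0.53 gave an exact permutation p of 0.2 (adjusted 0.257).

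The makeup of the Reg3 transcripts turned over between the groups. Per kilobase of coding sequence, Reg3d made up 83.8%, 92.0% and 82.6% of the summed Reg3 level in controls and 24.9%, 43.1% and 22.8% in cKO mice. Reg3b made up 12.03%, 5.27% and 11.97% in controls and 53.3%, 43.6% and 54.2% in cKO mice. Reg3g went from 1.52% ± 0.29 to 13.2% ± 4.85 and Reg3a from 2.61% ± 1.09 to 6.18% ± 0.71 (SD, n = 3). In cKO 2, Reg3b and Reg3d were nearly equal, and in the other cKO mice Reg3b was above Reg3d. The log2 ratio of Reg3b to Reg3d differed by 4.01 and that of Reg3a to Reg3d by 2.85 (exact permutation p = 0.1 for each, adjusted 0.15).

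**Figure D4:**
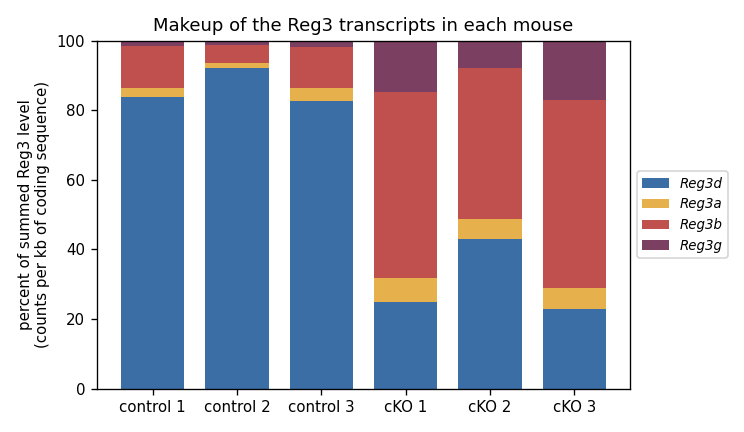
Share of each Reg3 gene in the summed Reg3 level, in percent, per kilobase of coding sequence, with 1 bar per mouse. Reg3d fills 82.6% to 92.0% of the bar in controls and 22.8% to 43.1% in cKO mice, where Reg3b fills 43.6% to 54.2%.

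Over the whole family the Reg3 genes nevertheless remained a small part. Reg3a, Reg3b, Reg3d and Reg3g together made up 1.498%, 1.58% and 1.49% of the summed Reg level per kilobase in controls and 4.43%, 3.13% and 5.29% in cKO mice. The difference of 2.76 percentage points had an exact permutation p of 0.1, adjusted 0.15. Reg1 made up 96.3% ± 2.64 in controls and 92.9% ± 3.26 in cKO mice (SD, n = 3). The log2 ratio of Reg3b to Reg1 went from -9.42 ± 0.65 to -5.47 ± 0.60, without overlap (exact permutation p = 0.1, adjusted 0.15). That of Reg1 to Reg2 was 6.52 ± 2.43 and 5.34 ± 1.21, with overlap (exact permutation p = 0.5, adjusted 0.562).

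By mean level per kilobase in controls, the members ranked Reg1, Reg2, Reg3d, Reg3b, Reg3a and Reg3g. The place of Reg2 rests on control 3, the only control where it was above Reg3d (28285 against 6642 normalized counts per kilobase). Reg2 and Reg3d overlapped over the control mice, as did Reg3a and Reg3g, and the other neighbours did not. In cKO mice the order of the means was Reg1, Reg2, Reg3b, Reg3d, Reg3g and Reg3a. Reg2 was above Reg3b in cKO 3 alone (7326 against 3915). Here Reg2 overlapped Reg3b and Reg3b overlapped Reg3d, while Reg3g stood above Reg3a in every mouse, at 912 to 1344 against 438 to 653 normalized counts per kilobase.

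Of the receptor genes that bear on Reg3 induction, Il22ra1, for a chain of the IL-22 receptor, was among those called lower. Il22ra1 was at 1103, 1300 and 1759 normalized counts in controls and at 111, 346 and 107 in cKO mice, with cKO 2 again the highest of its group. Its log2 fold change was -3.06 (SE 0.40, limma adjusted p = 6.57e-04), and its part in the Reg3 values was not tested. Over all genes, 16.8% were called lower and 17.1% higher. In the list of gp130 and IL-22 receptor signalling, 4 of 16 measured genes were called lower and 1 higher, with a median of 0.10. The lower genes were Il22ra1, its partner chain Il10rb at -0.79 (limma adjusted p = 0.00189), the LIF receptor Lifr at -0.90 (limma adjusted p = 0.00204) and the IL-6 receptor Il6ra at -0.64 (limma adjusted p = 0.00342).

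The shared signal transducers of this pathway did not pass the test. Il6st, which encodes gp130, had a log2 fold change of 0.38 (limma adjusted p = 0.0658), Stat3 0.24 (limma adjusted p = 0.135) and the STAT3 target Socs3 0.05 (limma adjusted p = 0.886). The cytokine genes Il6, Il11, Il22, Lif and Osm were not among the genes of the table. STAT3 activity is set by phosphorylation and was not measured here.

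In the list of IL-17, IL-1 and TNF receptor signalling, 5 of 21 measured genes were called higher and 1 lower, with a median of 0.41. The shares of all genes were 17.1% higher and 16.8% lower. Every gene of the table reached 27.6 normalized counts in at least 1 mouse. Of the 5 called higher, 1 did so in cKO mice alone, so that it was listed because it was high there. Nfkbiz, a nuclear IkB protein that acts downstream of IL-17 and IL-1 receptors, rose from 117 to 129 normalized counts in controls to 291 to 332 in cKO mice (log2 fold change 1.29, limma adjusted p = 1.12e-04). Nfkb1 was higher as well, at 0.60 (limma adjusted p = 0.0162), and the receptor-associated kinase gene Irak1 was lower, at -0.85 (limma adjusted p = 0.00127).

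EXTL3, a glycosyltransferase of heparan sulfate synthesis that has been proposed as a receptor for Reg proteins, was lower at the transcript level. Extl3 was at 2841, 2808 and 2684 normalized counts in controls and at 695, 962 and 676 in cKO mice. The groups were far apart (log2 fold change -1.85, SE 0.15, limma adjusted p = 8.87e-05). For comparison, 17.1% of all genes were called higher and 16.8% lower. Of the 10 genes in the list of proposed Reg receptors and their downstream signals, 2 were called higher and 3 lower, with a median of -0.03. Besides Extl3 these included Pik3r1, a regulatory subunit of PI3-kinase, at 1.60 (limma adjusted p = 3.47e-04), and Akt1 at -1.07 (limma adjusted p = 4.27e-04).

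Other acute phase and antimicrobial secreted proteins were read beside Reg3b and Reg3g. Of 14 measured genes, 10 were called higher and none lower, the median being 1.24 on the log2 scale, and 21 further genes of the list, Lcn2 and the Saa genes among them, were not among the genes of the table. Of the 14, 3 were listed through the cKO mice alone, Fgl1 among them. Among the 11 that reached 27.6 normalized counts in both groups, 8 were called higher and none lower, against 17.1% and 16.8% of all genes. Pigr, the receptor that carries IgA across epithelia, was at 117 to 154 normalized counts in controls and 650 to 1049 in cKO mice (log2 fold change 2.72, limma adjusted p = 4.31e-05). Fgl1, a liver and pancreas acute phase gene, was at 1.23 to 4.48 in controls and 93.4 to 286 in cKO mice, a description only, since it was listed through the cKO mice. Cp, which encodes the copper protein ceruloplasmin, had a log2 fold change of 1.05 (limma adjusted p = 5.05e-04).

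Genes of acinar stress and injury were mixed. Of 21 measured, 10 were called higher and 2 lower, against 17.1% and 16.8% of all genes, with a median of 0.45. Of the 10, 3 reached 27.6 normalized counts in cKO mice alone. Sox9 was higher at 2.21 (limma adjusted p = 2.00e-05), the secreted chaperone gene Clu at 2.22 (limma adjusted p = 1.86e-04) and osteopontin, Spp1, at 5.14 (limma adjusted p = 2.27e-04). The 2 lower genes were the pancreatitis-induced Nupr1 at -2.03 (limma adjusted p = 0.00188) and Atf4 at -1.04 (limma adjusted p = 0.00400).

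**Figure D5:**
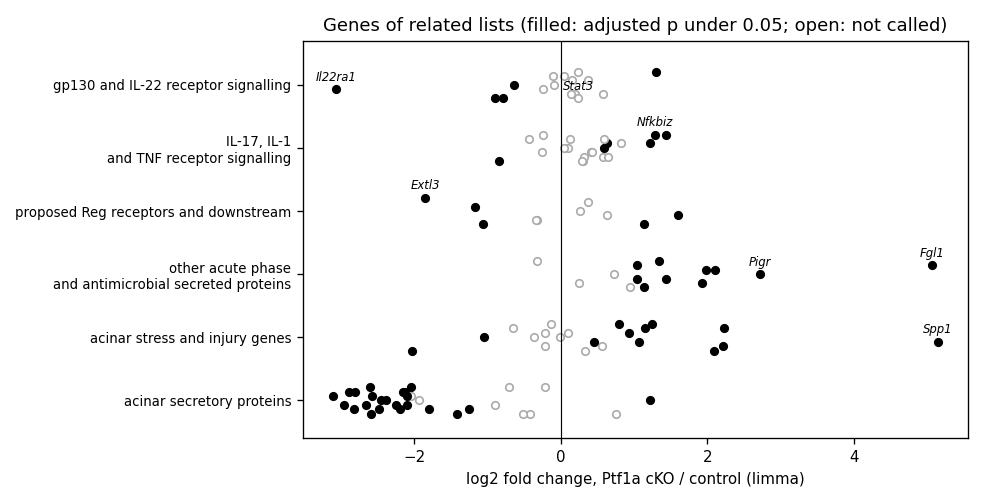
Log2 fold change (Ptf1a cKO over control, limma) of every measured gene of 6 lists, 1 point per gene, filled where the adjusted p was under 0.05; vertical offsets within a list carry no value. Il22ra1 and Extl3 lie to the left, at -3.06 and -1.85, while 10 of the 14 acute phase and antimicrobial genes are filled and lie to the right, 2 of these 10 having been listed through the cKO mice alone.

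Markers of other cell types moved with the same contrast, and their part in the Reg values was not tested. The share of all genes called higher was 17.1%. Of 13 measured duct genes 8 were called higher and none lower, with Prom1, Sox9 and Epcam at the smallest adjusted p. Their sum was 4273 to 5148 normalized counts in controls and 26472 to 111188 in cKO mice, most of it Spp1, without which it was 2923 to 3189 and 5501 to 6038. Of 15 leukocyte genes 11 were called higher and none lower (sums 685 to 1216 and 1853 to 3842), and of 14 fibroblast and stellate genes 13 higher and none lower (sums 3578 to 4170 and 6847 to 12435). Among 6 measured C-type lectins of leukocytes, distant relatives of the Reg proteins, 3 were called higher and none lower, led by Clec2d at a log2 fold change of 2.47 (limma adjusted p = 3.52e-04). The fat list had 1 of 9 called higher, Cfd, and the lymph node list 1 of 4, Cxcl13. Of the genes called higher, 3 of the duct list, 1 of the leukocyte list, Cfd and Cxcl13 reached 27.6 normalized counts in cKO mice alone. A high endothelial venule gene, Glycam1, was at 356 normalized counts in cKO 3 and at 0 in the other cKO mice.

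Because Reg3b and Reg3g are abundant in the small intestine, its markers were read as well. Across the table, 17.1% of genes were called higher and 16.8% lower. Of 34 listed genes 8 were measured, of which 3 were called higher and 1 lower, with a median of 0.48, and the intestinal genes Cdx1, Cdx2, Fabp1, Fabp2, Apoa1, Apoa4 and Muc2 were not among the genes of the table. Anpep was called higher at 2.25 (limma adjusted p = 2.63e-05) and Dpp4, a brush border peptidase gene, at 0.58 (limma adjusted p = 0.0161), while Zg16, which acini also make in large amounts, was lower at -2.25 (limma adjusted p = 0.00661). The third gene called higher, the intestinal lectin Itln1, was at 0.0189 to 1.13 normalized counts in controls and 32.0 to 71.3 in cKO mice, and was listed through the cKO mice alone. Vil1 was at 25.6, 8.90 and 56.0 in cKO mice 1, 2 and 3 and at 7.05 to 10.4 in controls (limma adjusted p = 0.136). Among the cKO mice, Vil1 was lowest in cKO 2, where Reg3g was also lowest and Reg3b was highest. The part of intestinal RNA in the Reg3 values was not tested.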

How the data were processed

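The authors sequenced RNA from whole pancreata of 3 control and 3 Ptf1a cKO mice. Single-end reads of 50 bases were aligned and counted per gene symbol. The submitters' processing notes name TopHat2 2.0.4, Bowtie 0.12.7.0, SAMtools 0.1.18.0, HTSeq 0.6.0 and the build mm9, and the study's methods name edgeR with TMM scaling. The authors deposited 1 table, in which each value is a signal, the read count of a gene after normalization, with decimals. The values gave back no whole reads, so count tests were not run. The study's methods state how many reads aligned in each library, but the scaled table does not carry that depth, no counting interval is given, and precision rests on the spread between mice. The 3 entries for reads without a single gene were left out. They held 75.7% to 77.3% of a library's normalized counts in controls and 78.9% to 82.6% in cKO mice, without overlap. Most of this was the entry for alignments that were not unique, at 74.4% to 76.2% and 77.3% to 81.1%. Its bearing on the gene values was not tested.

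Values were divided by 13.6393 for all libraries, and log2(value + 0.25) was fitted with limma 3.58.1 (R 4.3.3; mean-variance trend, no covariate, two-sided, Benjamini-Hochberg over 10245 genes, threshold 0.05). The pseudocount equals 3.41 normalized counts, and fold changes on this scale understate those of low genes. Ratios and shares within a mouse were compared by exact permutation tests. The fit was tested on simulated data. Every Reg value, the lowest being 40.0, exceeded the table's lowest gene maximum of 27.6, so no member was listed through 1 group alone.

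Named were the Reg genes, Ptf1a, the 3 nearest profiles of each member, the 3 smallest adjusted p of each of 14 lists, and Extl3, Il22ra1, Il6ra, Il6st, Stat3 and Socs3. A few other genes (Nupr1, Atf4, Dpp4, Vil1, and list members named as outside the table) were chosen after the values had been seen. Some genes that the rule names are not reported here. The members and lists were chosen with earlier results of these data known. Promoters are from RefSeq (GRCm38.p6), transcripts and coding lengths from GENCODE M21, and all 7 symbols matched. Alternatives covered the pseudocount, a filter, the scaling, the fit, a block, sex and leaving out each mouse. Replicates were taken as separate mice from the labels.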

Additional observations from a re-analysis of the deposited data

How the results depend on the processing

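Reg3a, Reg3b and Reg3g kept their direction and their call under every alternative run, while Reg3d, Reg1 and Reg2 did not. With library totals set equal, 9719 genes were called in place of 3475 and the median log2 fold change of all genes moved to 1.49, since the acinar secretory genes take a large part of a control total. There Reg1 stood at 0.41 and Reg3d at 0.36, both reversed in sign and not called, and Reg2 at 1.59 and called (limma adjusted p = 0.00233). Relative to that median Reg1 was at -1.07 and Reg3d at -1.13. Of the calls, 98.7% were then higher, against 50.4% in the reported fit, 77.7% with the same total outside the acinar list and 43.6% among 7354 genes with a mean of at least 5 scaled counts. Reg3d lost its call with the same total outside the acinar list (-0.90, adjusted p = 0.0673), and at -1.14 in limma without a trend (adjusted p = 0.0577) and with robust estimation (adjusted p = 0.0725). The cause was not tested. Leaving out 1 mouse at a time moved the log2 fold change of Reg1 between -1.50 and -0.72, of Reg3d between -1.60 and -0.79 and of Reg2 between -1.21 and 1.40, and the number of genes called between 2363 and 3601. Reg2 turned negative without control 2 (-1.21) or cKO 3 (-0.17). The difference in the log2 ratio of Reg1 to Reg2 ran from -2.37 to 0.063, turning without control 2, and that of Reg3d to Reg1 from -0.10 to 0.022, turning without control 2 (0.0092) or cKO 1. Whether the replicate numbers pair the mice could not be settled, since 3 mice a group are too few to decide. Same-numbered deviations correlated at 0.04, 0.13 and 0.14 over genes. Each control correlated best with its same-numbered cKO mouse, whereas cKO 1 correlated best with control 2 (0.08). A replicate block gave 3525 calls and changed no call of a Reg gene (Reg3d -1.14, adjusted p = 0.0188), and neither did sex as a covariate. Tests on recovered reads (edgeR, DESeq2) were not run because whole reads could not be recovered. With 3 mice a group the exact tests cannot go below 0.1.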
